A study of Mus musculus with 41 samples.

Results

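The 9 genes of the major histocompatibility complex (MHC) class II pathway on this mouse array were H2-Aa, H2-Ab1, H2-Eb1, H2-DMa, H2-DMb1, H2-DMb2, H2-Oa, H2-Ob and Cd74. They were taken as every spot whose gene name on the array equaled one of these symbols, which gave 24 spots of 15 probes among 43379 spots, 41174 probes and 27962 gene names. Female C57BL/6 mice, of the substrain C57BL/6BomTac, inhaled surface-coated nanoTiO2 at 40 mg/m3 or filtered air for 1 hr per day on 11 days and were killed 5 days later. The labels of the miRNA arrays of the series, not used here, gave an age of 11 to 13 weeks. Lung RNA was hybridized for 7 exposed and 6 control mice, and liver RNA for 7 exposed and 8 control mice. Each of the 28 arrays held RNA of 1 mouse, and 12 mice had an array of each tissue. Mice of both groups were time-mated females that had not conceived, whose mRNA labels give an age only as a day of gestation, and the RNA came from random portions of the left lung and of a liver section. Mouse RNA carried Cy5 and a reference RNA pooled from mouse cell lines carried Cy3 on every array, with no dye swap. Values are log2 ratios of Cy5 over Cy3 unless a channel is named, and they were compared only within a probe.

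MHC class II molecules are surface proteins that present peptides from endosomes to CD4+ T cells. H2-Aa and H2-Ab1 encode the alpha and beta chains of the I-A molecule, and H2-Eb1 encodes the beta chain of I-E. Cd74, the invariant chain, chaperones the new dimers into endosomes, where H2-DM (H2-DMa with H2-DMb1 or H2-DMb2) loads the peptide and H2-DO (H2-Oa with H2-Ob) restrains H2-DM. Dendritic cells, B cells and macrophages carry most of the class II molecules of lung and liver, and alveolar type 2 cells of the lung express them as well. The C57BL/6 strain lacks I-E at its surface because its H2-Ea gene is not transcribed. On these arrays the H2-Ea probe was not well above background, by the flag of the scanner software, in either channel of any of the 28 arrays.

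The 8 H2 genes lie together on chromosome 17, between 34092379 and 34316674 of GRCm38, a span of 224296 bases. Class II promoters share an X box and a Y box, which hold the RFX and NF-Y complexes, to which the coactivator CIITA binds. The promoter stretches of the members with a Y box core are shown for the motifs that these genes share and through which CIITA, also measured on the arrays, is known to act. They come from the RefSeq promoter sequences of GRCm38, which held 7 of the 9 members. Capitals mark the Y box core (TGATTGG), the X box core (AACNNATGATG) and, in H2-Aa, a cyclic AMP response element (TGACGTCA).
H2-Aa, chr17:34287852-34287918, minus strand: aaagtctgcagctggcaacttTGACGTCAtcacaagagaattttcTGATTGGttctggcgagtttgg
H2-Eb1, chr17:34305761-34305827, plus strand: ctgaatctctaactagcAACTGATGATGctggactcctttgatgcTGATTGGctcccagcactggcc
H2-DMb1, chr17:34153083-34153149, plus strand: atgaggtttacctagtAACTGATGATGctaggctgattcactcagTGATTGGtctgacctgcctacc
H2-DMb2, chr17:34145112-34145178, plus strand: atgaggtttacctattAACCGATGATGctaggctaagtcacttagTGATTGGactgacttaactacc
H2-Oa, chr17:34092289-34092355, plus strand: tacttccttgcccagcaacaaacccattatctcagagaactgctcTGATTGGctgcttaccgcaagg
H2-Ob, chr17:34238801-34238867, plus strand: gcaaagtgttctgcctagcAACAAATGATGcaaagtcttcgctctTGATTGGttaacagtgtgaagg

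Each stretch is 67 bases long and ends before the annotated start of transcription. The Y box core was found in 6 of the 7 member promoters and in 7.82% of 32851 promoters, with the whole 300 bases of each promoter and both strands searched. The X box core was found in 4 of 7 and in 0.137% of all promoters, and both cores in the same 4 members and in 0.0274%. Between the X and Y box cores lay 15 to 18 bases. The letters of the motifs were chosen after these sequences had been read, and a match is a description and not a binding site.

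Probe sequences were given for 5 of the 15 member probes. A pair of H2-Ab1 probes is shown because they target nearly the same stretch of the transcript and had differences of 0.05 and 0.30 between exposed and control lung. Capitals mark the 31 bases in which the probes overlap.
A_51_P215242: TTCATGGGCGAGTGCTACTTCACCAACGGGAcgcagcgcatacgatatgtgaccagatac
A_52_P570717: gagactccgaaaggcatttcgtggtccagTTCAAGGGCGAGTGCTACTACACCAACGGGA

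Within the overlap the probes differ by T5A and T20A, counted from the first base of A_51_P215242 and with its base first. The array header placed A_51_P215242 in H2-Ab1 at chr17:32342603-32342662 of mm7 and gave no position for A_52_P570717 or for the H2-Aa probe A_51_P119760. How well A_52_P570717 matches the H2-Ab1 transcript of this strain was not tested. The H2-DMb2 probe A_52_P146877, at chr17:32228917-32228976 of mm7, also listed the H2-DMb1 transcript, so that its values cannot be assigned to H2-DMb2 alone.

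Class II RNA was higher in the lung than in the liver of mice that breathed filtered air. In the ratios, 14 of 15 member probes were higher in control lung at an adjusted p under 0.05 (limma, Benjamini-Hochberg over all probes), against 30% of all 41149 probes tested. For 13 of 15 probes every control lung array lay above every control liver array, which held for 21.8% of all probes. The differences ran from 0.22 to 2.28 on the log2 scale of the ratio, with a median of 1.79 over the member probes and -0.02 over all probes. The tissues were also hybridized on separate slides and scanned with different versions of the scanner software, and these cannot be told apart from tissue. All 7 lung markers tested were higher in lung and all 9 liver markers higher in liver. In whole tissue, fewer cells of a type and less RNA per cell cannot be told apart.

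Of the genes of the I-A molecule, H2-Aa had ratios from 4.08 to 4.21 in control lung (median 4.15) and from 1.74 to 2.44 in control liver (median 2.16), with no overlap. The lung excess of H2-Aa was 2.02 ± 0.16 (SE of the difference, adjusted p = 1.9e-12 from limma), and 2.00 with its second probe. The brightest H2-Ab1 probe, A_52_P683598, had ratios from 3.44 to 3.84 in 5 measured control lungs (median 3.69) and from 3.23 to 3.62 in control livers (median 3.40). These groups overlapped, and the difference of 0.22 was not called (adjusted p = 0.076 from limma). Leaving out control lung mouse 24 or 34, control liver mouse 29 or exposed liver mouse 13 brought this probe past the threshold, at differences of 0.22 to 0.27, and median centering turned it to -0.13. The other H2-Ab1 probes, A_51_P215237, A_51_P215242 and A_52_P570717, were 2.15-fold, 2.79-fold and 2.84-fold higher in lung and were all called, so that the 4 probes of this gene disagreed in size. H2-Eb1 had ratios from 3.77 to 4.21 in control lung (median 3.86) and from 2.51 to 3.45 in control liver (median 3.01), a difference of 0.96 ± 0.16 (SE, adjusted p = 4.1e-06 from limma). The lung and liver arrays of H2-Eb1 did not overlap.

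Cd74 showed the largest tissue difference of the member ratios. Its ratios ran from 2.56 to 3.01 in 5 measured control lungs (median 2.60) and from 0.02 to 1.05 in 7 measured control livers (median 0.36). The difference of 2.28 ± 0.16 (SE) corresponded to a 4.85-fold ratio (adjusted p = 1.2e-12 from limma). Among the control livers mouse 29 was highest and mouse 26 lowest.

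The H2-DM genes, which load peptide, followed the same order. H2-DMb1 had ratios from 3.29 to 3.65 in control lung (median 3.39) and from 0.89 to 1.66 in control liver (median 1.24), a difference of 2.17 ± 0.15 (SE, adjusted p = 1.0e-13 from limma). H2-DMa ran from 1.31 to 1.67 in control lung (median 1.59) and from -0.45 to 0.10 in control liver (median -0.27), a difference of 1.79 ± 0.09 (SE, adjusted p = 1.4e-16 from limma). For H2-DMb2 the probe A_52_P146877 was 1.95 higher in lung. Its second probe, A_52_P1391, was well above background on 6 of 6 control lung arrays and on none of 8 control liver arrays. The Cy5 signal of A_52_P1391 was at least 1.52-fold higher in lung. Both H2-DO genes, which restrain H2-DM and are known from B cells, were higher in lung as well. H2-Oa had ratios from 1.70 to 2.41 in control lung (median 2.11) and from -0.15 to 0.22 in 7 measured control livers (median 0.11), a difference of 2.02 ± 0.12 (SE, adjusted p = 1.8e-14 from limma), and its second probe differed by 1.89. H2-Ob was well above background in all 6 control lungs and in none of 8 control livers, with a Cy5 signal at least 1.71-fold higher in lung. These bounds set the mean Cy5 signal of the lung arrays against the lowest signal well above background on each liver array, or the probe's own where higher, and are open to dye bias without a dye swap.

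**Figure D1:**
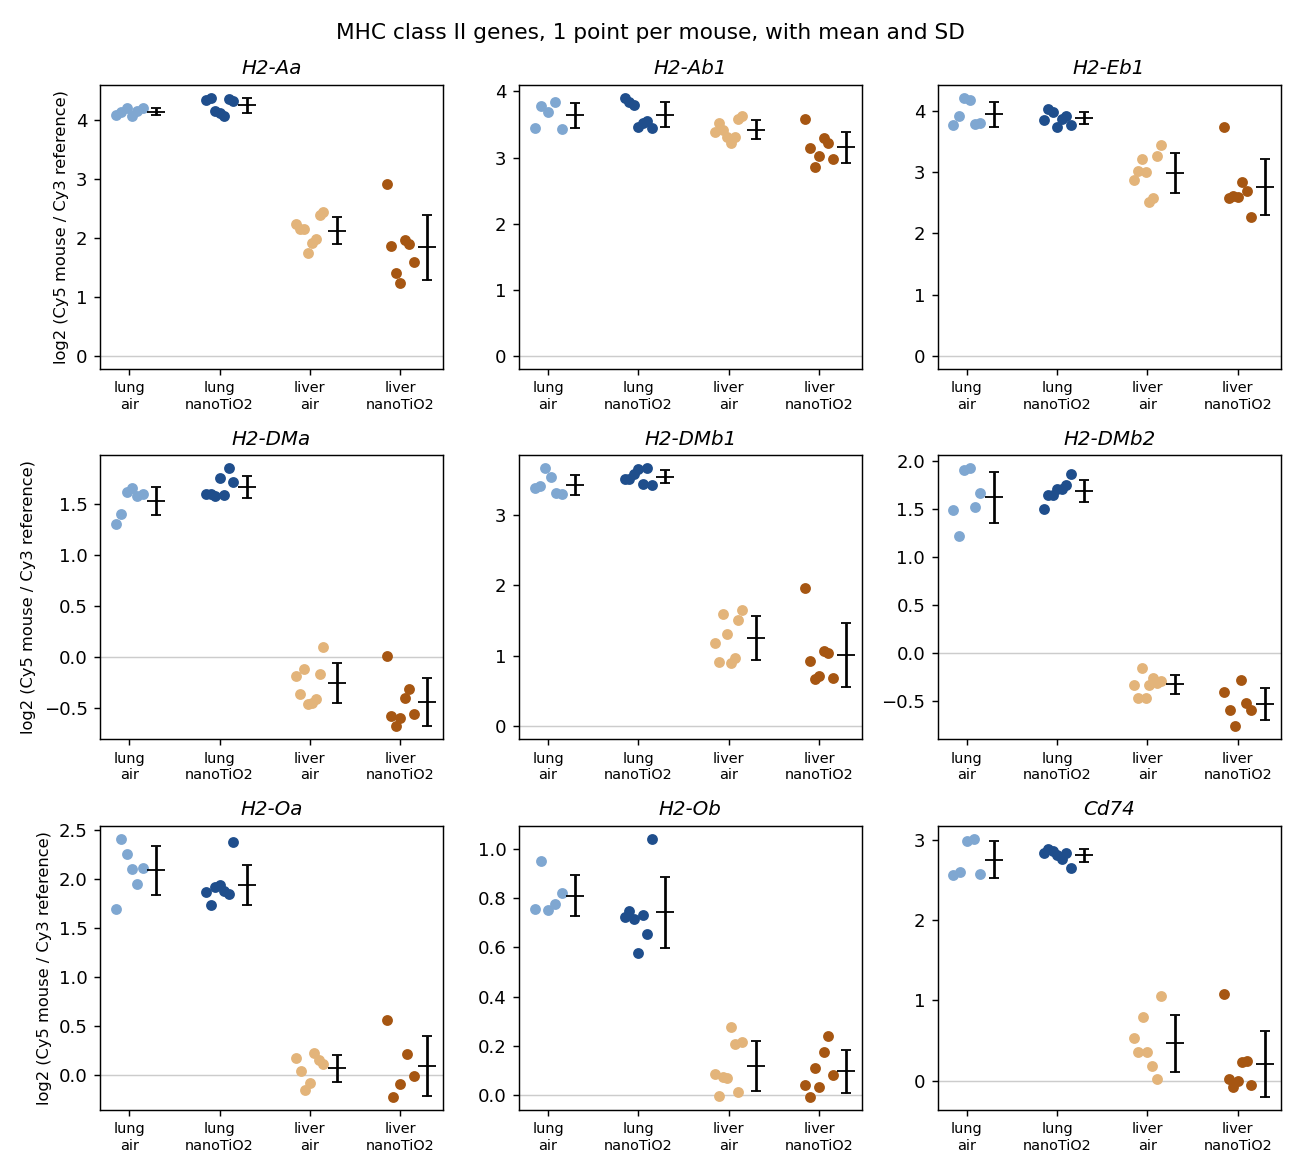
Log2 ratio of mouse RNA (Cy5) over reference RNA (Cy3) for the 9 genes, each by its brightest probe, with 1 point per mouse and the mean and SD of each group beside the points; the scales differ between panels. Lung lies above liver with no overlap for every gene except H2-Ab1, and in the exposed livers mouse 13 is the single high point for H2-Aa, H2-Eb1, H2-DMb1 and Cd74.

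CIITA, the coactivator that class II promoters depend on, was measured under its older name C2ta. Its ratio was 2.08 ± 0.24 (SD, n = 6) in control lung and 0.38 ± 0.20 (SD, n = 8) in control liver. The difference of 1.70 was called (adjusted p = 3.3e-13 from limma). Over all 41149 probes tested, 12330 were called higher and 12205 lower in lung, the background for each list below. Of the 19 regulators of class II listed, 11 were called higher and 6 lower in lung. The interferon gamma receptor gene Ifngr1 was 2.36 higher and the transcription factor gene Irf1 0.90 higher, while March8, whose product removes class II molecules from the surface, was lower (-0.41). Of 9 antigen processing genes 5 were higher and 4 lower in lung. Cathepsin S (Ctss), which trims the invariant chain, was 1.44 higher and the protease inhibitor gene Cst3 1.93 higher, while the protease genes Ctsl (-1.65) and Ctsb (-0.67) were lower. Of the brightest B cell markers Cd79b and Ms4a1 were 3.54 and 3.39 higher in lung, and Cd72 differed by -0.13 and was not called. Among markers of cells that carry class II, 8 of 11 B cell markers were higher and none lower in lung, and 5 of 9 dendritic cell markers were higher and 1 lower. Of 9 monocyte and macrophage markers 4 were higher and 4 lower, of 9 alveolar macrophage markers 7 were higher and 1 lower, and all 5 Kupffer cell markers were lower. All 8 alveolar type 2 cell markers with a fit were higher in lung.

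The reference RNA was the same on all arrays, yet its Cy3 signal at the member probes differed between tissues. Between tissues, the signal of each channel was rebuilt from the ratio and the quantile-normalized mean log2 signal of both dyes. By that measure 14 of 15 member probes had more Cy3 signal on control lung arrays at an adjusted p under 0.05 (limma), against 26.4% of all probes. At the H2-Ab1 probe A_52_P683598 the Cy3 signal was 4.79-fold higher on lung arrays (2.26 on the log2 scale), at H2-Eb1 2.54-fold, at H2-Aa 1.87-fold and at Cd74 1.60-fold. The H2-Oa probe A_51_P449329 differed by -0.02 in Cy3, and C2ta by -0.01. Tissue markers that are very bright in Cy5 did the same. The surfactant protein gene Sftpc had a mean Cy3 intensity of 25638 on control lung arrays, where its Cy5 intensity was 460356, and of 35.9 on control liver arrays, where Cy5 was 88.8. Albumin (Alb1) had a mean Cy3 intensity of 10571 on control liver arrays and 71.3 on control lung arrays, with Cy5 at 447494 and 376. Why the Cy3 channel moved with Cy5 was not tested.

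In the Cy5 signal rebuilt in the same way, all 15 member probes were higher in control lung, against 33% of all probes. For the 13 probes well above background in liver the Cy5 differences ran from 1.86 to 2.96 on the log2 scale, and for A_52_P1391 and H2-Ob only the bounds above can be given. Cd74 was 7.76-fold higher in lung, H2-Aa 7.58-fold, H2-DMb1 7.53-fold, the H2-Ab1 probe A_52_P683598 5.56-fold and H2-Eb1 4.93-fold. The difference in the ratio is by construction the Cy5 difference minus the Cy3 difference, so it must be smaller wherever Cy3 is higher on lung arrays. With the processed signals of the scanner software, and no further normalization, 8 of 15 ratios were called higher in lung and those of H2-Aa (-0.50) and of the H2-Ab1 probes A_51_P215242 (-0.25) and A_52_P683598 (-0.00416) lay below 0. The Cy3 signal of this H2-Aa probe was well above background on 2 of 8 control liver arrays.

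**Figure D2:**
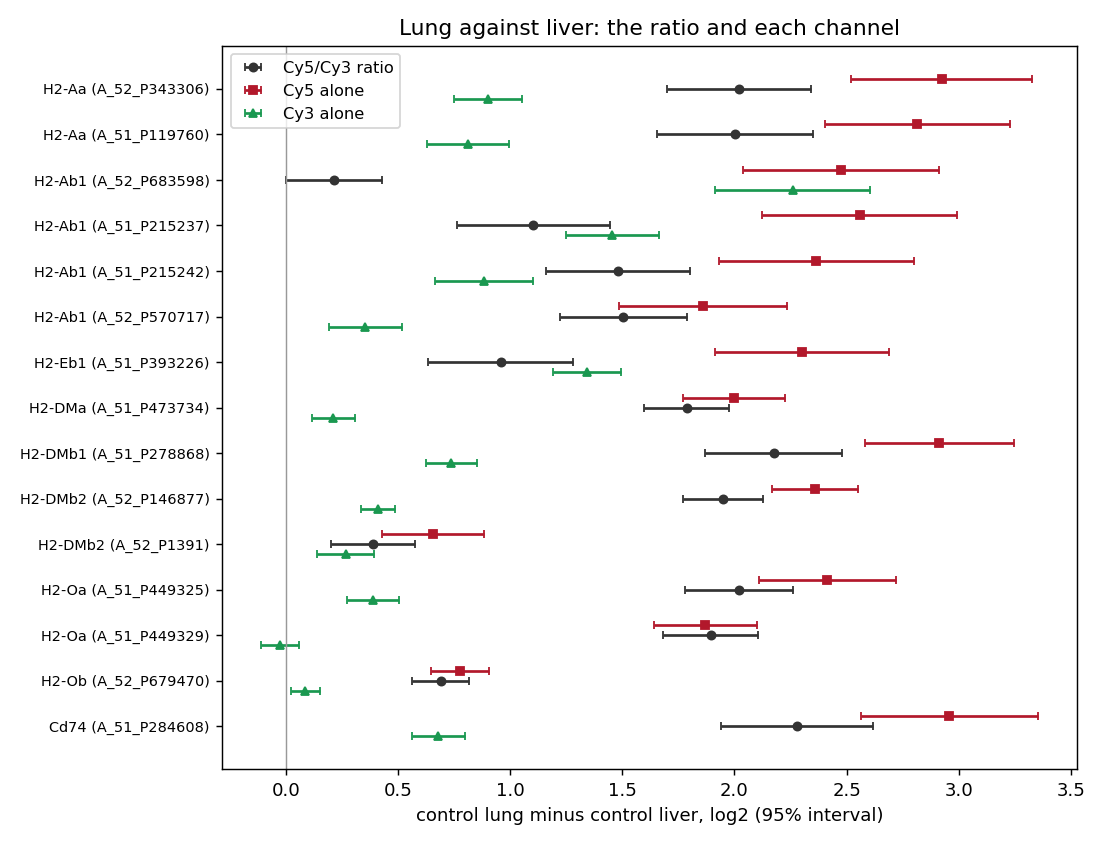
Difference between control lung and control liver on the log2 scale with its 95% interval for each member probe. Shown are the ratio of Cy5 over Cy3 (black circles) and the rebuilt signals of Cy5 (red squares) and Cy3 (green triangles). Cy5 differences lie between 1.86 and 2.96 for the 13 probes well above background in liver (A_52_P1391 and H2-Ob are not, and their points are no exact values). The ratio is by construction Cy5 minus Cy3, and the Cy3 difference is largest at A_52_P683598 of H2-Ab1, at 2.26.

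The lungs of mice that inhaled nanoTiO2 were compared with those that breathed filtered air, to see whether class II RNA changed with the exposure. None of the 15 member probes was called (limma, Benjamini-Hochberg over all probes), against 0.202% of 41155 probes tested. At an unadjusted p under 0.05 there were 2 of 15 member probes and 7.13% of all probes. The member differences ran from -0.16 to 0.30 with a median of 0.06, and 10 of 15 lay above 0, where the median of all probes was 0.00147. All 15 probes passed a filter on low signals in the lung.

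H2-Ab1 gave the largest difference, at a single probe for which the array header gave no position. A_52_P570717 had ratios from 2.92 to 3.35 in exposed lungs (median 3.23) and from 2.66 to 3.03 in control lungs (median 2.91). All 7 exposed mice lay above the mean of the controls, and only exposed mouse 12 lay below the highest controls. The difference was 0.30 (95% interval 0.15 to 0.46), with an exact permutation p of 0.0052 and an adjusted p of 0.19 from limma. It was -0.36 when the background model was fitted on all spots and -0.05 with the processed signals of the scanner software, neither called. The overlapping probe A_51_P215242 differed by 0.05, A_51_P215237 by 0.06 and A_52_P683598 by 0.01, with 95% intervals that reached no higher than 0.22.

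The Cy5 channel alone gave larger differences at all 4 H2-Ab1 probes, from 0.26 to 0.40. A_52_P683598 was 0.40 higher in exposed lungs in Cy5 (adjusted p = 0.17 from limma) and 0.38 higher in Cy3 (adjusted p = 0.95 from limma), against the 0.01 of its ratio. None of the 15 member probes was called in Cy5 alone, against 0.245% of all probes, with 5 of 15 at an unadjusted p under 0.05. In Cy3 alone none was called either, against 0.00972% of all probes, with 2 of 15 at an unadjusted p under 0.05. The share of all probes at that unadjusted p is not given for a single channel, here or in the liver, so these counts cannot be assigned to the members.

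The I-A alpha chain H2-Aa had ratios from 4.08 to 4.38 in exposed lungs (median 4.34) against 4.08 to 4.21 in controls, a difference of 0.11 ± 0.06 (SE) whose sign turned with the same 2 settings. Its second probe differed by -0.09. H2-Eb1 ran from 3.75 to 4.03 in exposed lungs (median 3.88), a difference of -0.06 ± 0.08 (SE). Cd74 ran from 2.65 to 2.88 in exposed lungs (median 2.84), which lay inside the range of the control lungs, and differed by 0.06 (95% interval -0.12 to 0.24). The exposed Cd74 values spread less than the control values, with an SD of 0.08 against 0.23. Control means by slide were 2.58, 3.00 and 2.57, and the slide at 3.00 held 2 controls and 1 exposed mouse. The part of the slides in the spread was not tested.

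H2-DMa was the other probe at an unadjusted p under 0.05 in the lung. It ran from 1.58 to 1.85 in exposed lungs (median 1.60), all 7 above the mean of the controls but overlapping them, and differed by 0.14 ± 0.06 (SE, exact permutation p = 0.069, adjusted p = 0.70 from limma). H2-DMb1 differed by 0.11 and the H2-DMb2 probes by 0.07 and 0.16. The Cy3 signal of the H2-DMb2 probe with 0.16, A_52_P1391, was well above background on 0 of 7 exposed and 1 of 6 control lung arrays. That of H2-Ob was not well above background on any lung array. With the background model fitted on all spots H2-DMa, H2-DMb1 and the brighter H2-DMb2 probe lay below 0, at -0.17, -0.047 and -0.27. The H2-DO genes had lower values, at -0.15 and -0.16 for the H2-Oa probes and -0.07 for H2-Ob, with 1 of 7 exposed mice above the control mean for each. That mouse was exposed mouse 19, with 2.38 for the brighter H2-Oa probe where the other exposed lungs ran from 1.73 to 1.94. Its 11 B cell markers lay on average 0.46 above the mean of the exposed lungs, and their part in its H2-Oa value was not tested.

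**Figure D3:**
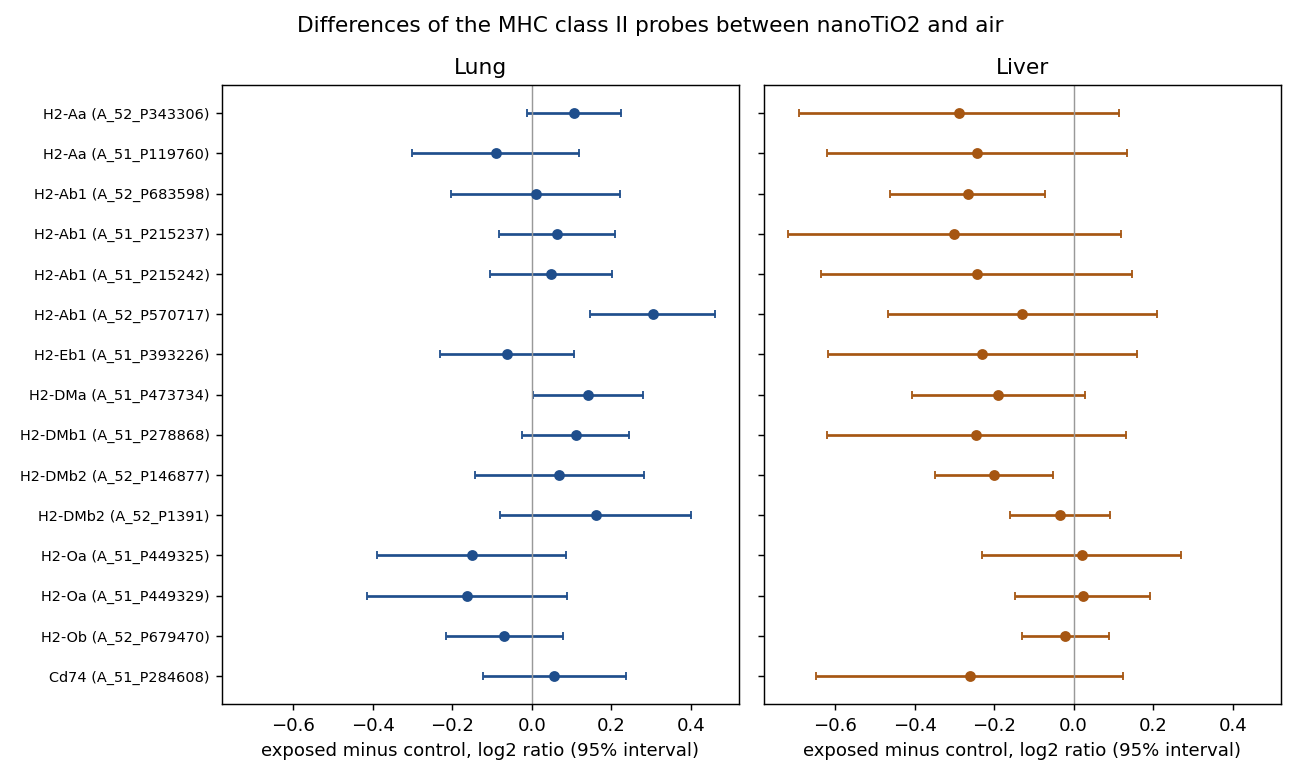
Difference between exposed and control mice in the log2 ratio with its 95% interval from limma, for each member probe in lung (left) and liver (right). In lung 10 of 15 points lie above 0 and in liver 2 of 15, and the interval lies wholly above 0 for A_52_P570717 and H2-DMa in lung and wholly below 0 for A_52_P683598 and A_52_P146877 in liver.

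The lung arrays lay on 4 slides, of which 1 held exposed mice only, and on every slide exposed samples took the positions before the controls, so that array position cannot be told apart from exposure. Within the slides that held both groups, 11, 4 and 14 of 15 member probes lay above 0, with medians of 0.24, -0.10 and 0.16. The slide with 4 held 1 exposed mouse and 2 controls. With slide as a fixed block none of the 15 was called, and 6 of 15 instead of 2 had an unadjusted p under 0.05. The share of all probes at that p in this fit is not given here, so the rise cannot be assigned to the members. Several differences were larger, at 0.14, 0.15 and 0.12 for the H2-Ab1 probes A_52_P683598, A_51_P215237 and A_51_P215242 and 0.12 for Cd74. The smallest adjusted p was 0.18 from limma, for A_52_P570717 at a difference of 0.30, and H2-Aa differed by 0.16 (adjusted p = 0.31 from limma).

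Genes around the class II molecules in the exposed lung were read from lists of regulators, processing enzymes and cell markers. The ratio of CIITA (C2ta) had a mean of 2.05 and an SD of 0.11 over the 7 exposed lungs, which differed by -0.03 from the 6 controls. None of 19 class II regulators was called in limma, with 3 at an unadjusted p under 0.05, and Irf1, Ifngr1 and March8 differed by 0.11, -0.04 and 0.05. All 9 antigen processing genes lay above 0 with a median of 0.17 and none was called, with 3 at an unadjusted p under 0.05. The brightest of them, Ctsl, Cst3 and Ctsb, differed by 0.06, 0.05 and 0.08. The legumain gene Lgmn (0.26, adjusted p = 0.056 from limma) and the thiol reductase gene Ifi30 (0.32, adjusted p = 0.092) came closest. Of 15 class I pathway genes 14 lay above 0 with a median of 0.07, and none was called in limma, with 1 at an unadjusted p under 0.05. Their brightest members H2-K1, H2-T23 and H2-D1 differed by 0.10, 0.08 and 0.12. Of 7 listed molecules that raise or restrain T cell responses beside the class II signal, 5 lay above 0. Cd83 rose by 0.52 (adjusted p = 0.0015 from limma), and the other 6 were not called, with Cd274 at -0.04 and Cd40 at 0.12.

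Some markers of macrophages and dendritic cells were called in the exposed lung, where no class II gene was. All 9 monocyte and macrophage markers lay above 0 with a median of 0.26, and Ms4a7 rose by 0.66 (adjusted p = 0.0010 from limma). The brightest, Emr1, Cd68 and Csf1r, differed by 0.29, 0.36 and 0.07. Their Cy5 level was summed over the 8 markers measured on every lung array. The sum ran from 7871 to 10185 in exposed lungs and from 6032 to 6976 in control lungs. How often sums over other genes separate the groups was not tested, and array position cannot be told apart from exposure. The part of these markers in the member values was not tested. Of 9 alveolar macrophage markers 8 lay below 0, with a median of -0.07 over the list. Marco, a scavenger receptor, rose by 0.57 (adjusted p = 0.0092 from limma), while Siglec5, named Siglecf on the array, fell by 0.70 (adjusted p = 0.011) and Ear1 fell by 0.48 (adjusted p = 0.00060). The brightest of that list, Chi3l3 and Fabp4, were at -0.11 and -0.03. The integrin Itgae, carried by a class of dendritic cells and by T cells of epithelia, rose by 0.66 (adjusted p = 0.0032 from limma) among 9 dendritic cell markers of which no other was called, with Fscn1 and Itgax both at 0.12. Of these 9 markers 6 lay above 0 and 3 below. None of 11 B cell markers and none of 8 alveolar type 2 cell markers with a fit was called, with 1 and 2 at an unadjusted p under 0.05. Liver markers lay above 0 in exposed lungs for 9 of 9 genes with a median of 0.51 and none was called, with 5 at an unadjusted p under 0.05. Their summed Cy5 level, over 8 genes, ran from 1007 to 16026 in exposed and from 744 to 1910 in control lungs, and their part in the member values was not tested.

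In the liver no probe of the whole array was called between exposed and control mice (limma, 0% of 41143 probes), and 2.53% had an unadjusted p under 0.05. Of the member probes 2 of 15 had an unadjusted p under 0.05. They ran from -0.30 to 0.02, with a median of -0.23 where that of all probes was -0.0039, and 13 of 15 lay below 0. In Cy5 alone the members ran from -0.34 to 0.03 and none was called (0% of all probes, 1 of 15 at an unadjusted p under 0.05). In Cy3 alone they ran from -0.07 to 0.04 and none was called (0% of all probes, 0 of 15 at an unadjusted p under 0.05). With the background model fitted on all spots all 4 H2-Ab1 probes, H2-Aa and H2-Eb1 lay above 0 in the liver, by 0.26 to 0.40, again uncalled.

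The class II genes of the exposed livers were spread by mouse 13. H2-Aa had ratios of 1.23, 1.41, 1.59, 1.86, 1.90, 1.98 and 2.92 in the exposed livers and ran from 1.74 to 2.44 in the controls. The Cy3 signal below these ratios was well above background on 1 of 7 exposed and 2 of 8 control liver arrays. Only mouse 13, at 2.92, lay above the control mean, and the difference was -0.29 (95% interval -0.69 to 0.11, exact permutation p = 0.20). H2-Eb1 had 3.74 in mouse 13 and 2.27 to 2.84 in the other exposed livers, against 2.51 to 3.45 in controls, a difference of -0.23. Cd74 had 1.08 in mouse 13 and -0.08 to 0.25 in the others, against 0.02 to 1.05 in controls, a difference of -0.26. H2-DMb1 had 1.97 in mouse 13 and 0.66 to 1.07 in the others, against 0.89 to 1.66 in controls, a difference of -0.24. For these 4 genes the groups overlapped also without mouse 13.

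The H2-Ab1 probe A_52_P683598 and the H2-DMb2 probe A_52_P146877 were the member probes at an unadjusted p under 0.05 in the liver. A_52_P683598 ran from 2.86 to 3.58 in exposed livers (median 3.14) and from 3.23 to 3.62 in controls (median 3.40). It differed by -0.27 ± 0.09 (SE, exact permutation p = 0.020, adjusted p = 1.00 from limma). A_52_P146877 ran from -0.76 to -0.28 in 6 measured exposed livers and from -0.46 to -0.15 in controls, a difference of -0.20 ± 0.07 (SE, exact permutation p = 0.017, adjusted p = 1.00 from limma). Mouse 13 has no value there, since its spot was marked as an outlier. H2-DMa differed by -0.19, and the H2-Oa probes by 0.02 each, with 5 and 6 exposed livers measured. H2-Ob and the H2-DMb2 probe A_52_P1391 were not well above background on any liver array, and their liver values count only in the totals above. The CIITA gene C2ta had a mean ratio of 0.37 (SD 0.35) over the 7 exposed livers, -0.01 from that of the 8 controls.

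Without mouse 13 the liver differences were larger, at -0.47 for H2-Aa, -0.41 for Cd74, -0.40 for H2-DMb1, -0.39 for H2-Eb1, -0.34 for A_52_P683598 and -0.26 for H2-DMa. None of the 15 probes was called without it, nor any other probe (adjusted p = 1.00 from limma for each of these). Each of the 4 liver slides held both groups. Within them 12, 1, 11 and 3 of 15 member probes lay above 0, with medians of 0.08, -0.55, 0.11 and -0.42, and mouse 13 lay on the slide with 11. The slide with 12 held 1 exposed mouse and 2 controls, and the others 2 of each. On the slide with 11 the H2-Aa ratios were 2.92 in mouse 13 and 1.86 in exposed mouse 19, against 2.24 and 2.15 in the controls. The direction of the member differences thus varied between slides with 1 or 2 exposed mice each, and whether it depends on the slide was not tested.

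None of the genes around class II was called in the liver, and the lists differed in how many lay below 0. The 9 antigen processing genes lay below 0 with a median of -0.15 (2 at an unadjusted p under 0.05), and Ctss was at -0.35 and Ctsl, Cst3 and Ctsb at -0.15, -0.06 and -0.02 (adjusted p = 1.00 from limma for each). Of 19 class II regulators 13 lay below 0 and 6 above, among them March8 at 0.05. Of 15 class I genes 14 lay below 0, of 9 monocyte and macrophage markers 8, of 11 B cell markers 8 and of 10 T cell markers 8. The class I genes H2-T23, H2-K1 and H2-D1 were at -0.27, -0.10 and -0.09, and the macrophage markers Emr1, Cd68 and Csf1r at -0.30, -0.15 and -0.16. All 5 Kupffer cell markers lay below 0 with a median of -0.19 (2 at an unadjusted p under 0.05), with Cd5l at -0.26, Clec4f at -0.19 and Folr2 at -0.17. Over the 3 Kupffer cell markers measured on every liver array, the summed Cy5 level ran from 4913 to 7593 in exposed and from 4873 to 9085 in control livers. The part of the Kupffer cells in the member values was not tested.

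Whether exposure acted differently in the tissues was tested as the difference of both effects. None of 15 member probes was called (limma), against 0.141% of 41125 probes, with 3 of 15 at an unadjusted p under 0.05 and 4.3% of all probes. The member values, lung minus liver, ran from -0.19 to 0.43 with a median of 0.28, and 12 of 15 lay above 0. The largest was 0.43 at the H2-Ab1 probe A_52_P570717 (95% interval 0.04 to 0.83, adjusted p = 1.00 from limma). H2-Aa had 0.39, H2-Ab1 at A_51_P215237 0.36 and H2-DMb1 0.36, with intervals that held 0. H2-DMa had 0.33 (95% interval 0.06 to 0.60) and Cd74 0.32 (95% interval -0.14 to 0.78). Within the 12 mice with both tissues H2-DMa differed by 0.38 (adjusted p = 0.39 from limma) and none of the 15 probes was called.

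The class II genes varied together between livers and less so between lungs. After the group means were subtracted, the 15 pairs among H2-Aa, H2-Ab1, H2-Eb1, Cd74, H2-DMa and H2-DMb1 had Pearson r from 0.80 to 0.95 over 15 liver arrays (median 0.86). Whether liver and lung differ in this was not tested. Without mouse 13 they ran from 0.53 to 0.92. Over 13 lung arrays the same pairs ran from -0.13 to 0.90 with a median of 0.29. H2-Oa had r from 0.53 to 0.76 with these 6 genes in liver, which became -0.09 to 0.38 without mouse 13, and from -0.07 to 0.28 in lung. These are descriptions across arrays that also share slides and dye channels.

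A mean over H2-Aa, H2-Ab1, H2-Eb1 and Cd74, as the deviation of each mouse from its group, was set against the mean of each of 5 marker lists in each tissue, 10 relations in all. In liver it rose with the 9 monocyte and macrophage markers (Pearson r = 0.84, permutation p = 0.00021, Benjamini-Hochberg adjusted p = 0.0021 over the 10, Spearman rho = 0.83, permutation p = 0.00046). Without the 2 arrays farthest from the median of the markers r was 0.76, and without mouse 13 it was 0.77 (adjusted p = 0.030). With the dendritic cell markers it had an r of 0.69 (permutation p = 0.0019, adjusted p = 0.0093, rho = 0.67, permutation p = 0.0085), which was 0.63 without the 2 farthest arrays. It was no longer called without mouse 13 (r = 0.67, adjusted p = 0.11) or in Cy5 alone (r = 0.56, adjusted p = 0.077). The Kupffer cell markers had r = 0.59 (permutation p = 0.017, adjusted p = 0.057, rho = 0.54), which was 0.69 in Cy5 alone (adjusted p = 0.014). The B cell and T cell markers had r = 0.38 and r = 0.23 (permutation p = 0.10 and 0.34), neither called. With slide means subtracted as well, r was 0.83 for the monocyte and macrophage markers, 0.82 for the dendritic cell, 0.71 for the B cell and 0.61 for the T cell markers, all 4 called, and 0.53 for the Kupffer cell markers, not called. In that setting arrays were permuted within groups but not within slides, although slide means had been removed, so its adjusted p values may be too small. The slides held too few arrays for a value within each.

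**Figure D4:**
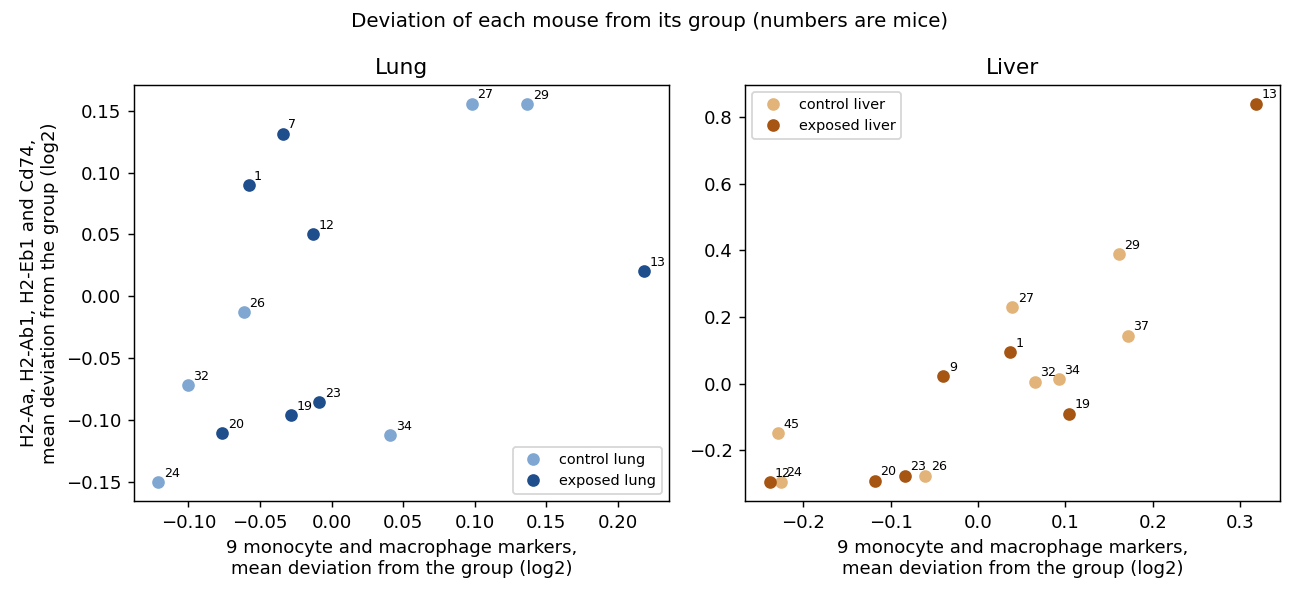
Mean deviation of H2-Aa, H2-Ab1, H2-Eb1 and Cd74 from the group mean against that of 9 monocyte and macrophage markers on the log2 scale, in lung (left, 13 mice) and liver (right, 15 mice), with the number of each mouse. In liver both rise together (r = 0.84) with mouse 13 at the top, and in lung r is 0.49 and not called.

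In the lung none of the 5 relations passed. The monocyte and macrophage markers had r = 0.49 (permutation p = 0.12, adjusted p = 0.20), the B cell markers 0.11 and the dendritic cell markers -0.28. The last value turned to 0.60 in Cy5 alone and to 0.34 with slide means subtracted. The alveolar macrophage markers had r = -0.60 (permutation p = 0.061, adjusted p = 0.15) and rho = -0.71 (permutation p = 0.023, adjusted p = 0.077), and -0.44 without the 2 arrays farthest from their median.

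Of the 12 mice with both tissues, 9 deviated from their group in the same direction in lung and liver, which was not tested. Mouse 13 stood 0.84 above its group in the liver and 0.02 above it in the lung. Control mice 29 and 27 were high in both, at 0.39 and 0.23 in liver and 0.16 and 0.16 in lung, and control mouse 24 was low in both, at -0.29 and -0.15. Exposed mice 20 and 23 were also low in both, at -0.29 and -0.28 in liver and -0.11 and -0.09 in lung. Mice 27 and 29 shared a slide in each tissue, as did mice 20 and 23, so that mouse and slide cannot be told apart here.

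The genes whose pattern was most like that mean were listed for each tissue by Pearson r after the group means were subtracted, with no test. In the liver, over 15 arrays and 14970 probes well above background on all of them, the leading genes were Ptprc (0.92), the pan-leukocyte receptor CD45, the leukocyte surface antigen gene Cd52 (0.92) and Cd274 (0.90), which encodes PD-L1. They were followed by Ralgds, Adcy7, the adhesion receptor Cd44, AK005018, C2ta (0.89), the leukocyte sialoglycoprotein gene Spn and Ctla2a. Without mouse 13 Ptprc had 0.90, Cd52 0.85 and C2ta 0.76. In the lung, over 13 arrays and 17784 probes, they were Bcam (0.94), the carboxypeptidase gene Cpm (0.93), LOC675757, Gucy1a3, BC006684, Shf, Mbnl2, Enpp4, Trip11 and Alg12. No gene was in the top 10 of both tissues, which is no finding, since lists of 10 among 14970 and 17784 probes seldom share a gene. C2ta was a member of the list of regulators as well.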

How the data were processed

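Agilent 4 × 44 arrays of 28 samples were read from the deposited scanner output, which holds median spot intensity and local background per dye. The authors also deposited a table of log2 ratios after LOWESS, used as an alternative. Groups, mice and tissues came from the labels. Intensities were corrected with normexp (offset 50), fitted without spots marked as outliers, and normalized by loess within each array with control spots at weight 0. Marked spots were left out (11 member values) and spots of a probe averaged. Tests used limma 3.58.1 in R 4.3.3 (lmFit, eBayes) with Benjamini-Hochberg adjustment over all probes at 0.05, where the authors had used MAANOVA. For the exposure comparisons each channel was quantile normalized alone within a tissue. Between tissues, in the marker relations and in summed levels, channels were rebuilt from the ratio and the quantile-normalized mean log2 signal of both dyes. Exact permutation tests were two-sided over up to 1716 splits in lung and 6435 in liver, and correlations used 100000 permutations. A gene with several probes was represented by the one of highest mean signal. Further genes named were CIITA and H2-Ea, list genes called in an exposure comparison, the brightest of each list and the 10 most alike per tissue. Ctss, Lgmn and Ifi30 were picked after their values were seen. Missing values were left out of list means.

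The members and gene lists were chosen with earlier results of these data known. Methods were tested on simulated data. Samples of 12 mice pair the tissues by animal, with a consensus correlation of 0.045. Each array had between 54.4% and 69.9% of its spots above background, by the flag of the scanner software for Cy5. No member spot was saturated. The number of arrays limits the precision. The authors' values correlated with those used here at 0.992 to 0.996 per array, their column medians ran from -0.042 to -0.022, and their background correction is not given in the sources used here. No array duplicated another, the highest correlation within a group being 0.988.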

Additional observations from a re-analysis of the deposited data

Results flagged for a closer look

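Of 60 member probes by group tested, 7 had a mouse whose gap to the others exceeded the 95% critical value of Dixon's test, which chance passes in about 1 of 20 groups. Member probes are not independent, since probes of a gene and genes of this pathway move together.

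Exposed liver mouse 13 was flagged for H2-Eb1 (3.74, next value 2.84), H2-DMb1 (1.97, next value 1.07) and Cd74 (1.08, next value 0.25). It had the highest value of its group for 7 of the 9 genes. Its 9 monocyte and macrophage markers lay 0.32 and its 5 Kupffer cell markers 0.24 above the mean of the exposed livers, its 11 B cell markers 0.04 above with its 10 T cell markers at -0.05. Of its spots 56.9% were well above background in Cy5, where exposed livers ran from 55.9% to 69.4%. The part of these in its class II values was not tested.

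Exposed lung mouse 19 was flagged for both H2-Oa probes (2.38, next value 1.94, and 2.22, next value 1.83), for H2-Ob (1.04, next value 0.75) and for the H2-DMb2 probe A_52_P1391 (1.05, next value 0.68). For H2-Ob and A_52_P1391 the Cy3 signal was not well above background on any exposed lung array. H2-Aa, H2-Ab1, H2-Eb1 and Cd74 of this mouse had a mean deviation of -0.10 from the exposed lungs, and its B cell markers 0.46 above it.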

How the results depend on the processing

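No member probe was called in either exposure comparison, or in their difference, under any of the alternatives run, among them each array left out in turn. Directions were less stable. With the background model fitted on all spots the lung differences were -0.47 for H2-Aa, -0.17 for H2-DMa, -0.047 for H2-DMb1, -0.27 for H2-DMb2, -0.00865 for Cd74 and -0.066, -0.25, -0.49 and -0.36 for the H2-Ab1 probes A_52_P683598, A_51_P215237, A_51_P215242 and A_52_P570717. The liver differences were then 0.27 for H2-Aa, 0.39 for H2-Eb1, 0.042 for H2-Ob and 0.26, 0.40, 0.27 and 0.26 for the same 4 probes. With the processed signals of the scanner software the lung differences were -0.030 for H2-Aa, 0.00738 for H2-Eb1 and -0.020, -0.035, -0.12 and -0.046 for those 4 probes, and that of H2-Oa in liver was -0.020. In the tissue comparison that setting called 8 of 15 probes, with H2-Aa at -0.50, A_52_P683598 at -0.00416 and A_51_P215242 at -0.25. Median centering gave 0.036 for H2-Eb1 in lung and -0.13 for A_52_P683598 between tissues. Scale normalization gave -0.081 for A_52_P683598 and -0.013 for Cd74 in lung. Slide as a fixed block gave 0.00106 for H2-Eb1 in lung and -0.010 for H2-Oa in liver, and the authors' table -0.036 for H2-Oa in liver. With each array left out, A_52_P683598 in lung ran from -0.040 (without control mouse 34) to 0.060, H2-DMb2 in lung from -0.011 (without control mouse 26) to 0.13, H2-Oa in liver from -0.098 (without exposed mouse 13) to 0.10 and H2-Ob in liver from -0.045 to 0.00161 (without control mouse 24). Tissue calls ran from 14 to 15. The cause of these shifts was not tested.

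Over all probes, 83 calls in lung became 12 with the background fitted on all spots, 4 after median centering and 133 where slide was a random block. The 58 calls of the difference became 5 and 12 in the first pair of these settings, 34 with processed signals and 31 with scale normalization. The replicate block of mouse, as a within-mouse difference, left 14 member probes called between tissues and 0 in the difference of effects, and changed no other call. Of 10 relations with marker lists, 2 were called, 1 without exposed liver mouse 13 and 4 with slide means subtracted, where the B cell (r = 0.71) and T cell markers (r = 0.61) joined. The permutations of that last setting were not held within slides, so its calls may be too many. The alternatives with a single channel, without mouse 13 and with slide means subtracted from these relations were added after the data had been seen. Of the 15 probes, 13 passed the filter on low signals in liver, where H2-Ob and A_52_P1391 stayed at background. The printed intervals are not adjusted over probes and are no limit of detection. A difference whose interval lay wholly off 0 could still go uncalled, as at A_52_P570717 and H2-DMa in lung.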
